A study of Mus musculus with 27 samples.

Results

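The respiratory chain and ATP synthase of mouse epididymal white adipose tissue were followed through weight gain, weight loss, maintenance and regain, with the subunits encoded in the nucleus set against those encoded in the mitochondrial genome. Members were taken from the deposited count table by gene name: protein-coding names beginning with Nduf and a subunit letter and number, with Uqcr, with Cox4 to Cox8 and a letter, or with Atp5, and the mt-Nd, mt-Co, mt-Cytb and mt-Atp names. This gave 93 genes of 43460 names, 80 nuclear and 13 mitochondrial. Of these, 91 were among the 17821 names with enough reads to test; the exceptions were Cox7b2 with 9 reads and Cox8c with 27 reads over all 27 libraries. The tested nuclear members were 37 of complex I, 8 of complex III, 16 of complex IV and 17 of complex V. The mitochondrial members were 7, 1, 3 and 2 in the same order. The rule works on names: it takes Atp5s and Atp5sl, leaves out Cyc1 and Ndufab1, and places Ndufa4 under complex I although that protein is now counted with complex IV.

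All samples came from C57BL/6N mice, and each was 60 to 70 mg of epididymal fat, with 3 libraries per group. The initial group was 5 weeks old. The 8-week groups, aged 13 weeks, had eaten either a normal diet (8-week controls) or a diet with 60% of its energy as fat for 8 weeks (8-week gain). The 12-week groups, aged 17 weeks, were on normal diet throughout (12-week controls) or on normal diet for 4 weeks after high-fat feeding (loss). At 21 weeks there were 16-week controls on normal diet, a maintenance group on normal diet for 8 weeks after high-fat feeding, a 4-week gain group on high-fat diet for its last 4 weeks, and a regain group given high-fat diet again for 4 weeks after weight loss. The labels do not give the length of the first high-fat feeding in the loss, maintenance and regain groups or the earlier diet of the 4-week gain group. They number the replicates without tying them to animals, so p-values here cover the spread among the sequenced samples only, which may in part be technical.

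The respiratory chain passes electrons from nutrients to oxygen through complexes I to IV in the inner mitochondrial membrane and pumps protons as it does so; complex V uses the proton gradient to make ATP. Most subunits are encoded in the nucleus and imported, while the catalytic core of complexes I, III and IV and part of the membrane rotor path of complex V are encoded in the mitochondrial genome. That genome is a small circle copied into long transcripts from each strand, which are cut into individual messengers at the transfer RNAs that lie between them, so the mitochondrial members share their transcription. In white adipocytes the chain supports fatty acid re-esterification and lipogenesis as well as ATP supply.

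Libraries held 26479773 to 32728594 counts. Of the 13 macrophage markers, all of which were detected in every library, the summed level was 1376 to 1864 reads per 1e6 after scaling (CPM) in the 8-week controls and 5606 to 6221 in the 8-week gain group, 1376 to 1810 in the 12-week controls and 6076 to 20356 in the loss group, and 1882 to 2357, 825 to 3319, 2807 to 5584 and 6737 to 11385 in the 16-week controls, maintenance, 4-week gain and regain groups. The 15 adipocyte markers summed to 57171 to 80631 CPM in the 8-week controls against 50339 to 54531 in the 8-week gain group, to 48496 to 87847 in the 12-week controls against 20097 to 57624 in the loss group, which overlap, and to 55575 to 77872 in the 16-week controls against 69779 to 92729 in maintenance, 55180 to 86677 in 4-week gain and 32666 to 44301 in regain. Single members of that list moved the sum in both directions. In the 8-week gain group Cfd had a mean of 426 CPM against 8908 in the 8-week controls, and Retn 281 against 1102. Lep had 5400 against 828. The sum is therefore not a count of adipocytes. The third maintenance library stood apart, with albumin (Alb) at 5233 CPM against 13.3 and 14.6 in the other maintenance libraries, and results that use the maintenance group are given with and without it where it changes a call or a median. Lars2 encodes the mitochondrial leucyl-tRNA synthetase and was listed here as a mark of RNA quality. It split the libraries into 15 with 1325 to 4104 CPM and 12 with 97.5 to 212 CPM. The split crosses every group but the initial one, whose libraries were all high, and its source was not tested. In whole tissue, fewer cells of a type and less RNA per cell cannot be told apart, and the part of these differences in the results below was not tested except where a value is given.

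Per length, the mitochondrial messengers that could be counted well, 8 of the 13 as described below, were the most abundant members. In the deposited FPKM, averaged over the 27 libraries, mt-Co1, the catalytic subunit of complex IV, stood at 8176, mt-Cytb, the cytochrome b of complex III, at 5060, and the complex I membrane subunits mt-Nd1 and mt-Nd2 at 3275 and 3095. mt-Atp8 of complex V stood at 2833 FPKM. The highest nuclear members were lower: Cox8a and Cox6b1 of complex IV at 605 and 421 FPKM, Ndufa4 and Ndufb9 at 381 and 234, the ATP synthase subunits Atp5b and Atp5a1 at 329 and 239, and the small complex III subunits Uqcr11 and Uqcr10 at 161 and 147.

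The 13 mitochondrial members were not counted alike. In 8 of them the median was 15971 to 371179 reads per library, and in the other 5, mt-Atp6, mt-Co2, mt-Co3, mt-Nd3 and mt-Nd4l, it was 29 to 108. Those 5 are the members with nuclear copies over nearly their whole length: of the 75-base stretches of each, 97.8% to 99.9% also occur letter for letter in unprocessed pseudogenes on chromosome 1 or elsewhere in the nuclear genome. The share was 61.5% for mt-Nd4, 39.8% for mt-Co1 and 5.71% for mt-Nd2. The start of 2 such members and of their nuclear copies is shown because a read from an identical stretch cannot be placed by its letters, and for mt-Nd3 only one that covers the differing base can be. Positions are on GRCm38, from the GENCODE M21 transcripts, and capitals mark the base at which a pair differs. mt-Co2 (chrM:7013-7072, plus strand) and Gm28661 (chr1:24615506-24615565, minus strand) were identical over the printed bases, and mt-Nd3 (chrM:9459-9518, plus strand) differed from Gm28438 (chr1:24613060-24613119, minus strand) by 1 base.
mt-Co2: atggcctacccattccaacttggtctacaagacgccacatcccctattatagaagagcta
Gm28661: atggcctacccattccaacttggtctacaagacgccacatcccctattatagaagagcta
mt-Nd3: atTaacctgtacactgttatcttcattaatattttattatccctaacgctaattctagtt
Gm28438: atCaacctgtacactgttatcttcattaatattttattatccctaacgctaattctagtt
The pseudogenes themselves held a median of 3 to 123 reads per library, so neither name of a pair held many reads. The treatment of reads with several placements is not known from the labels or files. Levels of the 5 members are therefore not read as levels of their messengers, and single messengers are described mainly from the 8 others. Sums, counts and medians over the 13 members below still include the 5.

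After 8 weeks of high-fat diet the mitochondrial messengers were lower, while the nuclear members showed no shared shift. The 13 mitochondrial members summed to 31691, 36058 and 38115 CPM in the 8-week controls and to 25999, 19181 and 22739 in the 8-week gain libraries, a mean 35.8% lower, and the groups did not overlap. The 80 nuclear members summed to 8674, 8214 and 11317 CPM in the controls and 8208, 9885 and 9680 after high-fat feeding. These nuclear sums overlapped. Of the mitochondrial members 3 of 13 passed the test (edgeR quasi-likelihood, Benjamini-Hochberg adjusted p under 0.05), all lower, where 21.5% of all tested names passed in either direction and 9.52% passed as lower. The median log2 fold change of the 13 was -0.72 and 12 were below 0, against a median of -0.02 over all names. Among the 78 nuclear members 1 passed, higher, where 12% of all names passed as higher, and their median was 0.08. Nuclear members with groups that did not overlap numbered 6 higher and 7 lower, where 26.5% and 23.1% of all names were so placed.

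**Figure D1:**
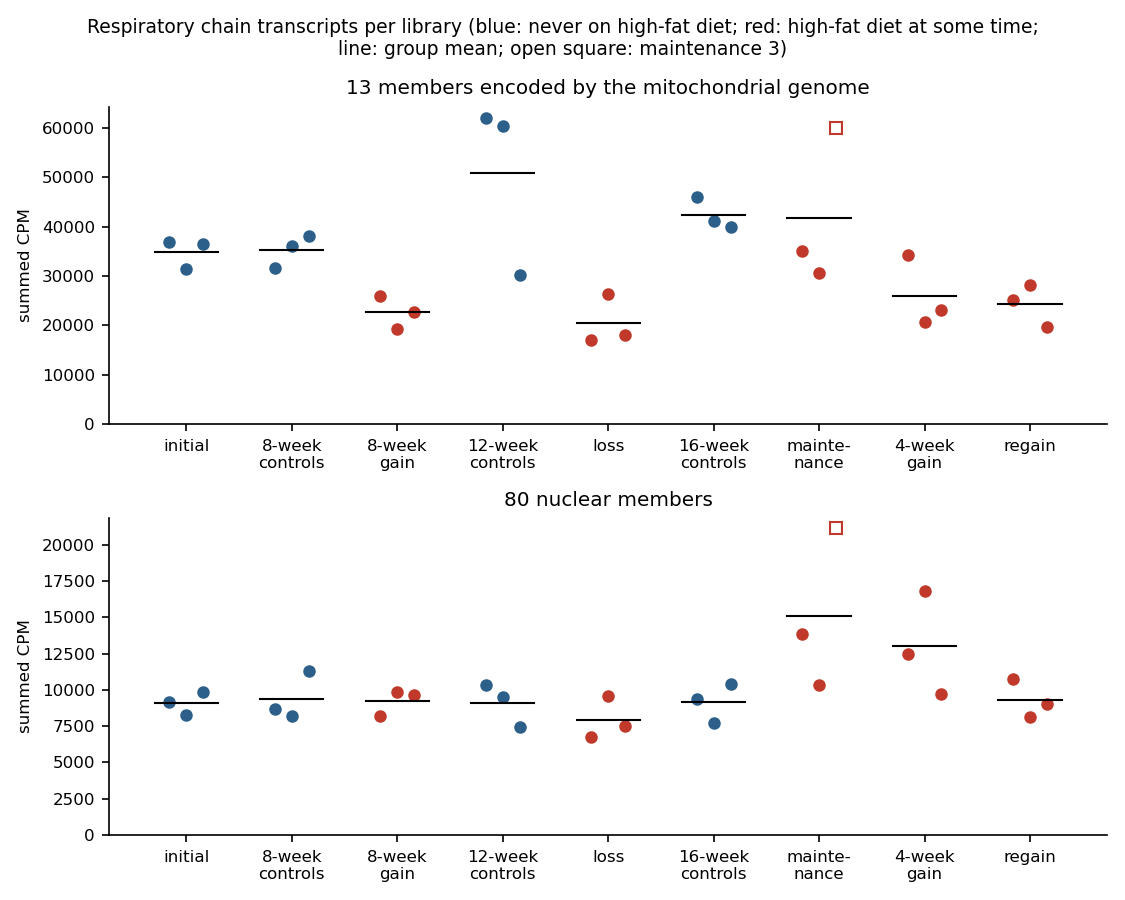
Summed level in CPM (vertical axes, starting at 0) of the 13 mitochondrial-genome members and of the 80 nuclear members in each of the 27 libraries, by group; points are libraries, lines are group means and the open square is the third maintenance library. The 8-week gain libraries sit between 19181 and 25999 CPM for the mitochondrial sum, all below the 8-week controls, while the nuclear sums of the same groups overlap.

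The 3 mitochondrial members that passed are the last in the order along the genome. mt-Nd5 (chrM:11742-13565), a proton-pumping membrane subunit of complex I, was at 4335, 4964 and 5260.4 CPM in the 8-week controls and at 2829, 1642 and 2201 CPM in the 8-week gain group. The groups did not overlap, and the difference was a log2 fold change of -1.13 (SE 0.34, adjusted p = 0.0205, n = 3 per group). mt-Cytb (chrM:14145-15288) was at 5533, 6619 and 6769.9 CPM against 3964, 2809.5 and 3368, a log2 fold change of -0.90 (SE 0.30, adjusted p = 0.0342). Each control library was again above each gain library. mt-Nd6, a complex I subunit and the single protein encoded on the opposite strand, was at 1293, 1484 and 1834 CPM against 821, 664 and 741 (log2 fold change -1.05, SE 0.27, adjusted p = 0.00826). Its annotated span (chrM:13552-14070, minus strand) overlaps that of mt-Nd5 only at chrM:13552-13565. Whether counting used strand is not stated, so mt-Nd6 reads and those of the facing transcript cannot be told apart. mt-Nd1, at the other end of the protein-coding order, was at 2603, 2684 and 3319 CPM in the controls and at 2769, 2592 and 2736 after high-fat feeding. Those groups overlapped and the log2 fold change was -0.09 (adjusted p = 0.887). mt-Nd2, the next gene, had 0.09 (adjusted p = 0.879). Between them and mt-Nd5 lay mt-Co1 at -0.65 (adjusted p = 0.12), mt-Atp8 at -0.72 (adjusted p = 0.185) and mt-Nd4 at -0.74 (adjusted p = 0.0508). Without the third 8-week control library 0 of the 13 passed, and without the second control, the second gain or the third gain library 1 did.

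**Figure D2:**
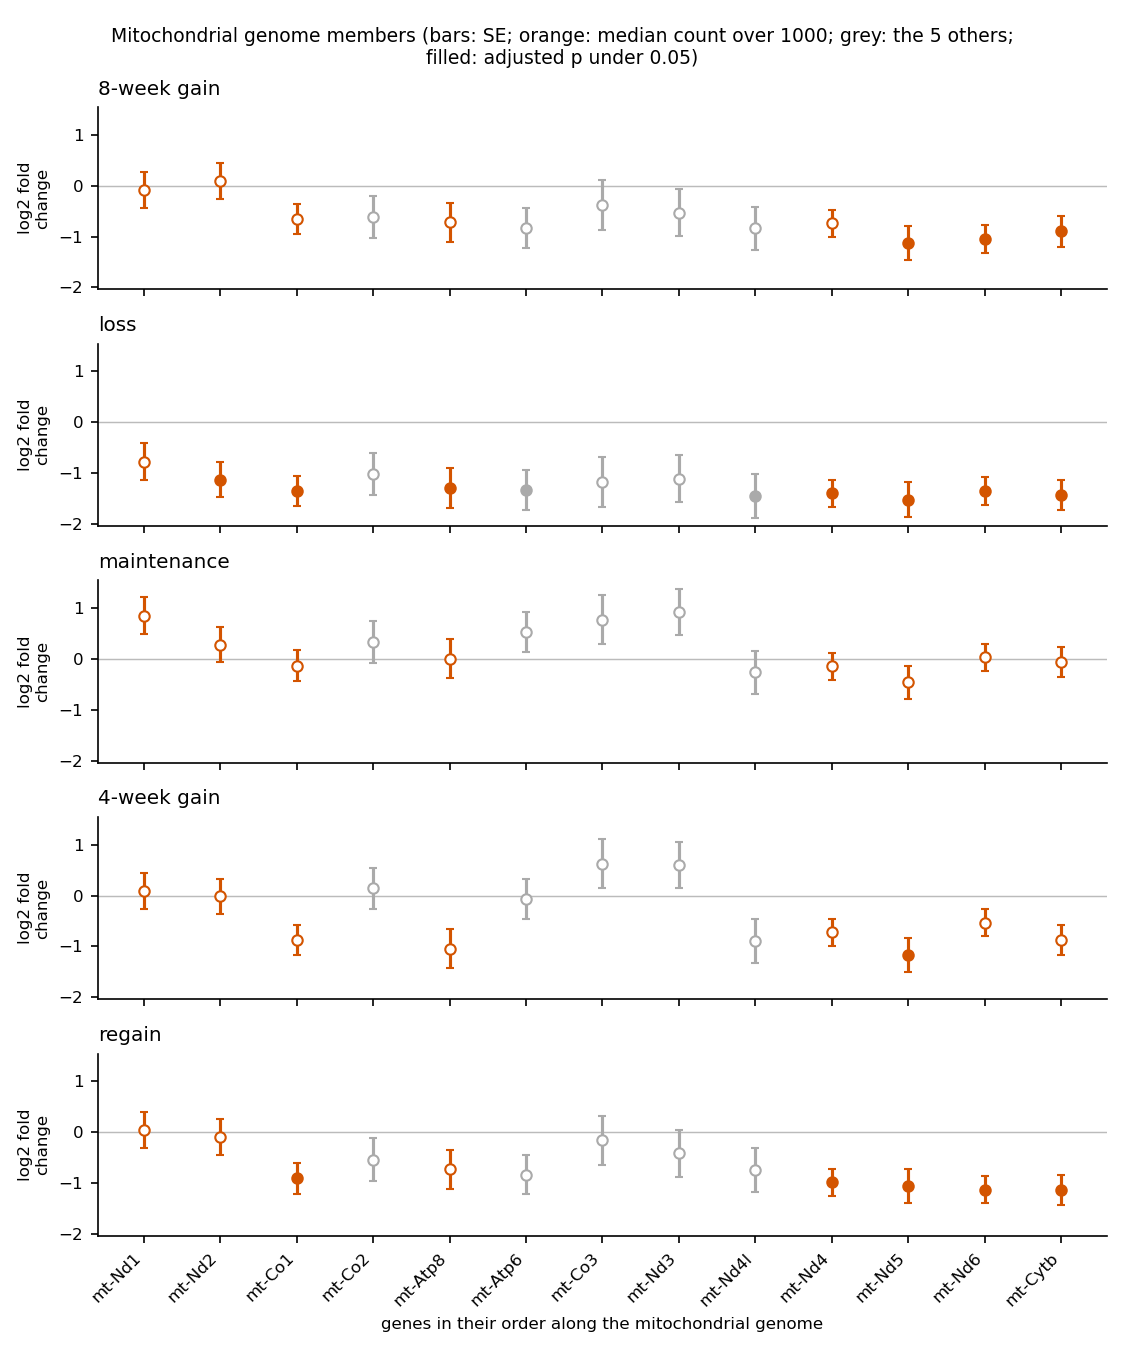
Log2 fold change (vertical axis, edgeR estimate with its SE as bars) of the 13 mitochondrial-genome members in their order along the genome (horizontal axis), for each diet group against its own controls; orange marks the 8 members with many reads, grey the 5 others, and filled points passed the test. In the 8-week gain, 4-week gain and regain groups mt-Nd1 and mt-Nd2 lie between -0.09 and 0.09 and mt-Nd5 between -1.18 and -1.06.

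The nuclear member that passed after 8 weeks was Cox6a2, the heart and muscle form of a small complex IV subunit. It was at 0.216, 0.154 and 0.168 CPM in the 8-week controls and 1.42, 4.86 and 3.39 CPM in the gain group, with no overlap (log2 fold change 4.14, SE 0.90, adjusted p = 0.00288). These are few reads, and the size of the fold depends on the prior count. The last exon of Cox6a2 (chr7:128205435-128206387, minus strand) shares 70 bases, chr7:128205435-128205504, with the last exon of Itgad on the opposite strand. Itgad encodes an integrin subunit carried by macrophages. It was at 0.308, 0.43 and 0.403 CPM in the 8-week controls and 27.4, 63.5 and 44.7 CPM in the gain group (log2 fold change 6.88, adjusted p = 0.000501). Without a stated strand setting the reads of the shared end cannot be told apart, so the Cox6a2 values are uncertain, and the part of Itgad in them was not tested. The 14 muscle markers summed to 68.8 to 132 CPM in the controls and 70.9 to 78.8 in the gain group, and Ckm, muscle creatine kinase, was at most 0.262 CPM in any library. Of the 10 muscle markers tested 1 passed as higher and 1 as lower, where 12% and 9.52% of all names did. Pvalb was at a mean of 14.5 CPM in the gain group against 0.157 in the controls (log2 fold change 6.48, adjusted p = 0.000193). Actn3 was at 0.619 against 5.65 CPM (-3.18, adjusted p = 0.000485). The isoforms Cox7a1 and Cox8b had separate groups but did not pass and are described with the other isoforms below.

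Among the complexes, the nuclear medians in the 8-week gain group were 0.03 for complex I, 0.07 for III, 0.18 for IV and 0.13 for V on the log2 scale. The mitochondrial medians were -0.74, -0.90, -0.62 and -0.78 in the same order. The median of IV is the value of mt-Co2 and that of V includes mt-Atp6 (-0.84), both with few reads. Those of mt-Co1 and mt-Atp8, with many reads, were -0.65 and -0.72. The ratio of mitochondrial to nuclear CPM sums was lower in each complex, by 28.7% in I, 45.5% in III, 37.8% in IV and 37.8% in V, with no overlap between the groups in any of them. Over all complexes it was 3.80 ± 0.527 in the 8-week controls and 2.49 ± 0.625 after high-fat feeding (SD, n = 3). An exact permutation test of 3 against 3 libraries cannot give a two-sided p below 0.1, so these ratios are given without a p.

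After 4 weeks back on normal diet the mitochondrial messengers were lower than in age-matched controls, and more of them passed. The sums were 62034, 60426 and 30313 CPM in the 12-week controls and 17136, 26371 and 18013 CPM in the loss group, a mean 59.7% lower with no overlap, although the third control library was well below the other 12-week controls. Of the 13 members 9 passed as lower, where 20% of all names passed in either direction and 8.24% as lower. Among the 9 were mt-Atp6 and mt-Nd4l, which had few reads. All 13 were below 0 with a median of -1.32. The nuclear sums were 10313, 9541 and 7457 CPM in the controls and 6723, 9610 and 7486 in the loss group and overlapped. The nuclear median was -0.14, with 62 of 78 below 0; 2 of 78 passed, both higher, where 11.8% of all names did.

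The 3 smallest adjusted p-values belonged to mt-Nd4, mt-Nd6 and mt-Cytb. mt-Nd4, a membrane subunit of complex I, was at 5502, 5249.8 and 2580.0 CPM in the 12-week controls and 1313, 2272 and 1470.1 in the loss group (log2 fold change -1.40, SE 0.27, adjusted p = 0.00107). Every loss library was below every control library. mt-Cytb was at 11547, 11778 and 5258 against 2855, 4601 and 3164 CPM (-1.43, SE 0.30, adjusted p = 0.00219) and mt-Nd6 had -1.35 (SE 0.27, adjusted p = 0.00148). The early genes were below 0 as well: mt-Nd2 at -1.13 (adjusted p = 0.0283), with overlapping groups, and mt-Nd1 at -0.77, which did not pass (adjusted p = 0.131). The test of the difference between the loss and 8-week gain effects was not passed by mt-Nd2 (-1.22, adjusted p = 0.636). mt-Nd5 was at -1.52 (adjusted p = 0.00345) and mt-Co1 at -1.35 (adjusted p = 0.00353). The number of mitochondrial members that passed was 5 without the first or the second control library, and 5 without the first or the third loss library. That difference had a median of -0.58 over the mitochondrial members and -0.19 over the nuclear members; 0 of 91 members and 0% of all names passed in edgeR, where the lowest adjusted p was 0.257 and 1231 names had an unadjusted p under 0.05.

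The nuclear members that passed in the loss group were Cox6a2 and Atp5g1, which encodes a form of the ATP synthase c-ring subunit. Atp5g1 (chr11:96068852-96075670) was at 36.3, 33.2 and 35.6 CPM in the 12-week controls and 61.7, 47.3 and 46.3 CPM in the loss group (log2 fold change 0.56, SE 0.18, adjusted p = 0.0305), with no overlap. Leaving out any of the control libraries or the first loss library left it above the threshold, with adjusted p of 0.0714 to 0.215 (range over all alternatives 0.018 to 0.215). Cox6a2 was at 0.116, 0.0382 and 0.18 CPM against 1.29, 1.91 and 0.662 (3.45, SE 0.93, adjusted p = 0.0126). Itgad stood at 0.735, 0.267 and 0.688 CPM in those controls and 19.6, 30.2 and 6.19 CPM in the loss group.

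In the maintenance group nearly all nuclear members lay above the controls, but none passed. Their sums were 9373, 7692 and 10383 CPM in the 16-week controls and 13869, 10363 and 21127 CPM in the maintenance libraries. The second maintenance library fell within the control range, and the third was the highest of all 27. The nuclear median was 0.78, 76 of 78 members were above 0, and 34 had maintenance libraries all above the controls, where 8.1% of all names did, and 0 had them all below, where 7.55% did. By edgeR 0 of 78 nuclear and 0 of 13 mitochondrial members passed, as did 0% of all names. At an unadjusted p under 0.05 there were 68 nuclear members, 1 mitochondrial member and 3633 of all names. DESeq2 gave 26 nuclear members, and its share over all names is not given here. The smallest adjusted p was 0.0508 over all names and 0.0571 among the members, for Cox7b, a small complex IV subunit at 74.1, 58.6 and 77.5 CPM in the controls and 133, 81.6 and 223 in the maintenance group. The medians were 0.75 in complex I, 0.94 in III, 0.80 in IV and 0.75 in V, and 0.58, 0.54, 0.58 and 0.49 without the third maintenance library.

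Without the third maintenance library the nuclear median was 0.57, with 76 of 78 above 0, and again 0 passed. Without the second one, the library nearest the controls, 54 nuclear members passed, and without the first, 5 did. Both of these fits keep the third library, with Alb at 5233 CPM. The share of all names that passed in them is not given here, so the counts have no background. The mitochondrial sums were 45956, 41165 and 39980 CPM in the controls and 35009, 30577 and 59995 CPM in the maintenance group, where the third library lay above all controls and the other two below them. The mitochondrial median was 0.03 with that library and -0.27 without it. The sum was 1.20% below the controls with it and 22.6% below without it.

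After 4 weeks of high-fat diet at the same age, most nuclear members lay above the controls and most well-counted mitochondrial messengers below them. These libraries share their controls with the maintenance and regain groups. The nuclear sums were 12478, 16813 and 9730 CPM against 9373, 7692 and 10383 in the 16-week controls, and the mitochondrial sums 34193, 20666 and 23136 CPM against 45956, 41165 and 39980. The nuclear sums overlapped and the mitochondrial sums did not. Of 78 nuclear members 4 passed as higher, where 5.82% of all names passed in either direction and 3.8% as higher. The nuclear median was 0.64 with 76 above 0, and 20 members had groups that did not overlap, all higher, where 14.1% of all names did. Of 13 mitochondrial members 1 passed as lower, where 2.02% of all names did, and the median was -0.54, or -0.80 over the 8 members with many reads.

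The nuclear members that passed were 3 accessory subunits of complex I and the c-ring gene. Ndufa11 (chr17:56717767-56722141), an accessory membrane subunit, was at 27.4, 28.1 and 43 CPM in the 16-week controls and 65.5, 97.5 and 50.3 CPM in the 4-week gain group (log2 fold change 1.11, SE 0.30, adjusted p = 0.0359). Atp5g1 was at 35.8, 34.2 and 40.6 against 49, 79.7 and 46.1 CPM (0.66, SE 0.18, adjusted p = 0.0359). For both, every gain library was above every control. Ndufa11 shares 6.41% of its exonic bases with Vmac on the opposite strand, and 20 nuclear members overlap a protein-coding gene in this way. Ndufb3 was at 58, 50.1 and 88.1 against 132, 143 and 109 CPM (0.97, SE 0.29, adjusted p = 0.0492). Ndufb7, named after its values were seen, had overlapping groups at 47.4, 41.8 and 66.4 against 87.3, 162 and 63.2 CPM (1.01, SE 0.29, adjusted p = 0.0465). The mitochondrial member that passed was mt-Nd5, at 5784, 5223 and 4395 CPM in the controls and 3559.8, 1030.1 and 2228 CPM after feeding (-1.18, SE 0.34, adjusted p = 0.0429). mt-Nd1 was at 0.09 and mt-Nd2 at -0.02, with mt-Co1 and mt-Cytb both at -0.87 and mt-Atp8 at -1.05. Without the second 4-week gain library, or without the first or second control, 0 nuclear and 0 mitochondrial members passed; without the third 4-week gain library 20 nuclear and 0 mitochondrial members did. The nuclear count was 7 without the third control and 16 without the third maintenance library, which belongs to neither group but enters the common fit. The mitochondrial count was 3 without the first 4-week gain library. The share of all names that passed in these fits is not given here.

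In the regain group the mitochondrial messengers were lower than in controls and the nuclear median was close to 0. The mitochondrial sums were 25084, 28124 and 19666 CPM against 45956, 41165 and 39980 in the 16-week controls, a mean 42.7% lower with no overlap. The nuclear sums were 10729, 8106 and 9039 CPM against 9373, 7692 and 10383 and overlapped. Of the mitochondrial members 5 of 13 passed as lower, where 21.7% of all names passed in either direction and 9.23% as lower, with a median of -0.74. Of the nuclear members 1 of 78 passed, higher, where 12.5% of all names did, with a median of 0.06.

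The 5 were mt-Nd6, mt-Cytb, mt-Nd4, mt-Nd5 and mt-Co1. mt-Nd6 was at 1731, 1582 and 1635 CPM in the controls and 809, 877 and 580.0 CPM in the regain group (log2 fold change -1.13, SE 0.27, adjusted p = 0.00489), and it passed in all 17 alternative settings. mt-Cytb was at 8712, 7341 and 7607 against 3314, 4486 and 2969 CPM (-1.14, SE 0.30, adjusted p = 0.00938). mt-Nd4 was at 4166, 3615 and 3572 against 1902, 2304 and 1546 CPM (-0.98, SE 0.27, adjusted p = 0.0118). In all 3 the groups were far apart. mt-Nd5 had -1.06 (adjusted p = 0.0271) and mt-Co1 -0.91 (adjusted p = 0.0333), while mt-Nd1 had 0.05 and mt-Nd2 -0.09. The mitochondrial ribosomal RNAs, which lie before mt-Nd1 and are not members, did not share the values of mt-Nd1 here: mt-Rnr2 had -0.95 (adjusted p = 0.0163) and mt-Rnr1 -0.87 (adjusted p = 0.0844). In loss they had -1.24 (adjusted p = 0.00312) and -1.51 (adjusted p = 0.00569), in 8-week gain both had -0.04 (adjusted p = 0.942 and 0.95), and in 4-week gain -0.18 and -0.29 (adjusted p = 0.713 and 0.649). The count that passed was 1 without the third regain library, 2 without the first control, and 3 without the second control or the first regain library. The nuclear member was Cox6a2 at 0, 0.102 and 0.743 CPM in the controls and 4.72, 1.79 and 3 CPM in the regain group (3.45, SE 0.86, adjusted p = 0.00685), with Itgad at 0.3, 0.171 and 3.58 CPM and 97, 24.3 and 59.3 CPM.

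**Figure D3:**
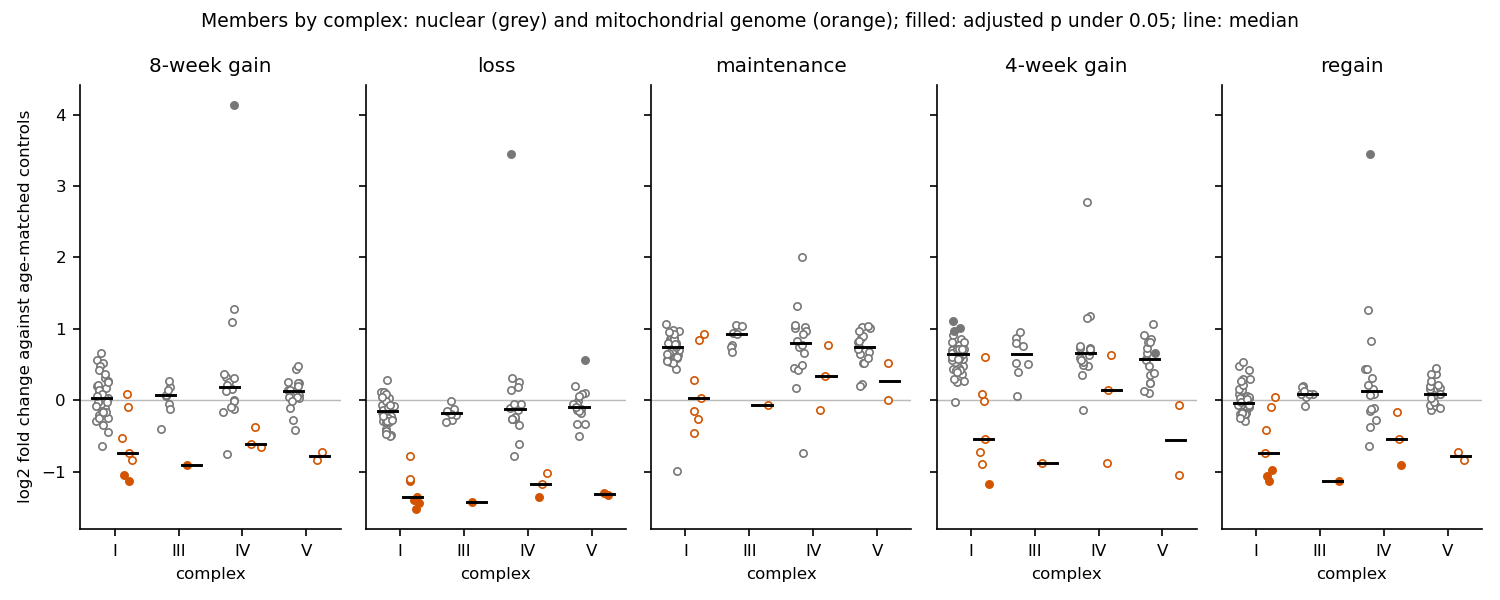
Log2 fold change (vertical axis, edgeR) of every tested member by complex, nuclear members and mitochondrial-genome members apart, for each diet group against its age-matched controls; points are members, filled where the test was passed, and lines are medians. The nuclear medians lie between -0.17 and 0.94 over the complexes and groups, and the mitochondrial medians of the 8-week gain, loss and regain groups lie below 0 in every complex.

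Regain was also compared directly with the 4-week gain group of the same age and with the maintenance group. Against 4-week gain, 0 of 78 nuclear and 0 of 13 mitochondrial members passed in edgeR, where 5.49% of all names did (4.12% higher and 1.36% lower); 41 nuclear and 2 mitochondrial members had an unadjusted p under 0.05, and DESeq2 gave 8 nuclear members. The nuclear median was -0.57 with 74 of 78 below 0, and 6 members had groups that did not overlap, all lower, where 10.4% of all names did. Without the third 4-week gain library, the lowest of its group, 26 nuclear members passed as lower. The shares of all names for that fit and for DESeq2 are not given here.

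Against maintenance, 37 of 78 nuclear members passed as lower and 1, Cox6a2, as higher, where 26.9% of all names passed in either direction, 13% as lower and 13.9% as higher. By complex, 20 of 37 passed as lower in I, 6 of 8 in III, 6 of 16 in IV and 5 of 17 in V. Without the third maintenance library the lower count was 9, where 27% of all names passed in either direction and 12.9% as lower. All 9 were also among the 37, and they include Atp5c1, Cox8a and Ndufb9. The nuclear median was -0.71 with that library and -0.51 without it. The count in either direction was 62 without the second maintenance library, 21 without the first, 10 without the third regain library and 8 without the second. These fits keep the third maintenance library, and the share of all names that passed in them is not given here.

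Ndufb9, an accessory subunit of complex I that shares 19.5% of its exonic bases with Gm49356, was at 250.5, 172 and 334 CPM in the maintenance group and 149.99, 96.8 and 108 CPM in the regain group (log2 fold change -1.09, SE 0.29, adjusted p = 0.00876). Atp5c1, the central stalk subunit of ATP synthase, was at 411, 257 and 537 against 253, 192 and 211 CPM (-0.88, SE 0.22, adjusted p = 0.00659). In both genes the groups did not overlap, and both passed (adjusted p = 0.0425 and 0.04) without the third maintenance library. Ndufa5 (-0.999, adjusted p = 0.0168), Ndufb10 (-0.98, adjusted p = 0.0126) and Ndufs7 (-0.96, adjusted p = 0.0176) had non-overlapping groups as well, but did not pass without that library (adjusted p = 0.0928, 0.0665 and 0.0975, ranges over all alternatives 0.00542 to 0.0928, 0.00305 to 0.0665 and 0.00537 to 0.0975). Of the mitochondrial members 5 of 13 passed as lower with the third maintenance library, where 13% of all names did. Without it 2 of 13 did, mt-Nd6 and mt-Atp6, where 12.9% of all names did, so that count is near the share of all names. mt-Nd6 was at 1987, 1374 and 1692 CPM in the maintenance group against 809, 877 and 580.0 (-1.16, SE 0.27, adjusted p = 0.0035). mt-Cytb had -1.07 (adjusted p = 0.0115), mt-Nd4 -0.83 (adjusted p = 0.0245), and mt-Atp6 and mt-Nd3, both among the 5 with few reads, -1.36 (adjusted p = 0.0145) and -1.34 (adjusted p = 0.0375).

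Growth from 5 to 13 weeks on normal diet was compared in the same way. Between the initial group and the 8-week controls 0 of 91 members passed in edgeR, where 0.724% of all names did (0.359% higher and 0.365% lower), and 1 member had an unadjusted p under 0.05. The medians were 0.06 for the nuclear and 0.05 for the mitochondrial members. The mitochondrial sums of the initial group, 36915, 31386 and 36544 CPM, overlapped those of the 8-week controls.

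The order along the mitochondrial genome was then read within each library, as the ratio of mt-Nd5 to mt-Nd1 per base of exonic length, which does not depend on the total of the library. The pair was chosen after the fold changes were seen, so the values are a description. In the initial libraries the ratio was 0.891, 0.981 and 0.844, in the 8-week controls 0.874, 0.970 and 0.832, in the 12-week controls 0.759, 0.881 and 0.954, and in the 16-week controls 1.07, 1.02 and 0.735. In the 8-week gain group it was 0.536, 0.332 and 0.422, and in the loss group 0.501, 0.509 and 0.501. In the maintenance, 4-week gain and regain groups it was 0.480, 0.691 and 0.267, then 0.522, 0.190 and 0.414, then 0.372, 0.485 and 0.443. The 12 libraries never on high-fat diet thus ran from 0.735 to 1.07 (median 0.886) and the 15 libraries with high-fat feeding at some time from 0.190 to 0.691 (median 0.480), with no overlap. Loss and maintenance, which had returned to normal diet for 4 and 8 weeks, were among the low libraries, and so were the maintenance libraries other than the third, at 0.480 and 0.691. A low ratio had different parts in these groups. In loss the log2 fold changes of mt-Nd1 and mt-Nd5 were -0.77 and -1.52. In maintenance they were 0.85 (adjusted p = 0.191) and -0.46 (adjusted p = 0.449) with all 3 libraries. The third maintenance library held 228822 mt-Nd1 reads against 82270 and 72052 in the others.

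Group means were 51.8% below controls in the 8-week gain group, 41.8% in loss, 49% in maintenance (37.7% without the third library), 60.1% in 4-week gain and 53.9% in regain, where the last 3 share their controls. The separation was also present within each Lars2 set. Among libraries with high Lars2, 8 never on high-fat diet lay at 0.844 to 1.07 and 7 others at 0.190 to 0.536; among those with low Lars2, 4 lay at 0.735 to 0.874 and 8 at 0.332 to 0.691. The ratio of mt-Cytb to mt-Nd1 gave 1.67 to 2.56 in the 12 libraries and 0.849 to 1.95 in the 15, which overlap through the first 2 maintenance libraries at 1.77 and 1.95. For mt-Co1 to mt-Nd1 the ranges also overlapped, at 2.61 to 4.02 in the 12 and 1.24 to 3.15 in the 15. The ratio of mt-Nd2 to mt-Nd1, neighbours at the start of the order, overlapped widely at 0.839 to 1.20 and 0.634 to 1.08.

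**Figure D4:**
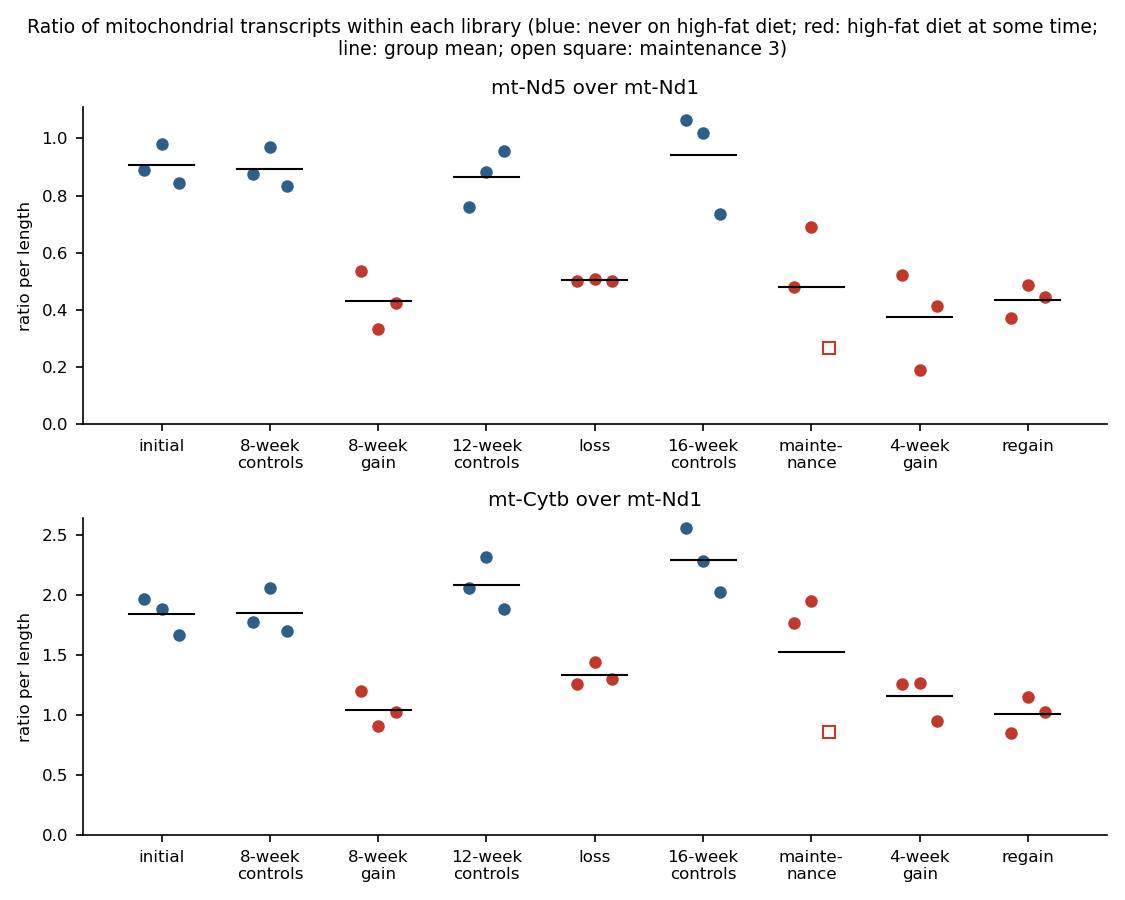
Ratio of mt-Nd5 to mt-Nd1 (upper panel) and of mt-Cytb to mt-Nd1 (lower panel), each per base of exonic length (vertical axes), in each library by group (horizontal axis); lines are group means, the open square is the third maintenance library, blue marks libraries never on high-fat diet and red those with high-fat feeding at some time. In the upper panel the 12 blue points run from 0.735 to 1.07 and the 15 red points from 0.190 to 0.691.

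Across all complexes the ratio of mitochondrial to nuclear CPM sums was lower than in controls in each of the 5 diet groups, with no overlap in any: by 34.7% in 8-week gain, 53.1% in loss, 41.1% in maintenance, 55.0% in 4-week gain and 43.4% in regain. Without the third maintenance library the maintenance value was 41.8%. The sums behind it differed between the groups: the nuclear mean was 1.53% below controls in 8-week gain, 12.8% below in loss and 1.55% above in regain, against 65.3% above in maintenance (32.4% without the third library) and 42.2% above in 4-week gain. By complex the ratio in the loss group was 49.6%, 57.5%, 56.0% and 51.5% lower in I, III, IV and V. In regain it was 31.4% lower in complex I, where the groups overlapped, and 56.9%, 46.8% and 42.0% lower in III, IV and V, where they did not.

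Complex IV has several subunits with a ubiquitous and a tissue-restricted form, and the restricted forms were minor in this fat. Cox8b, the muscle and brown fat form paired with Cox8a, was at 4.13, 3.99 and 6.14 CPM in the 8-week controls and 8, 13.2 and 13.5 CPM in the 8-week gain group. The groups did not overlap, but the log2 fold change of 1.28 did not pass (SE 0.78, adjusted p = 0.248). As a share of Cox8a and Cox8b together it was 2.30% ± 0.11 in the controls and 5.73% ± 1.05 in the gain group (SD, n = 3). Cox7a1, the matching form beside Cox7a2, was at 1.33, 1.78 and 1.98 CPM against 2.7, 4.08 and 4.07 CPM (1.09, SE 0.52, adjusted p = 0.138), a share of 3.75% ± 0.57 against 6.85% ± 0.28. Both were highest in the third maintenance library, at 60 and 9.98 CPM, the library with Alb at 5233 CPM. In the 4-week gain and regain groups Cox7a1 had 1.19 and 1.26 on the log2 scale (adjusted p = 0.164 and 0.0877).

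Cox6a2 rose from 0.0728% ± 0.0198 to 1.25% ± 0.597 of the Cox6a1 and Cox6a2 total in the 8-week gain group and was at 1.30% ± 0.472 in regain against 0.0974% ± 0.130 in the 16-week controls, with the overlap with Itgad already given. In maintenance it was at 0.453, 0.37 and 0.132 CPM, and the regain libraries were all above these, where 17.6% of all names did so (log2 fold change 3.28, adjusted p = 0.00782, and 2.90 without the third maintenance library, adjusted p = 0.0296). Cox6b2, the testis form of a complex IV subunit, was lower in regain than in maintenance (-1.65, adjusted p = 0.0181). There the first maintenance library was at 9.35 CPM and the others at 2.59 and 1.5. Without that first library the value was -0.53 (adjusted p = 0.41, range over the alternatives 0.000704 to 0.41). The 15 markers of efferent duct, epididymis and sperm summed to 17.1 to 53.6 CPM in maintenance and 0.636 to 2.87 CPM in regain. The part of such tissue in the Cox6b2 values was not tested. Of the ubiquitous forms, Cox8a (-0.87, adjusted p = 0.0128), Cox4i1 (-0.77, adjusted p = 0.0312) and Cox7a2 (-0.76, adjusted p = 0.042) fell in regain against maintenance, as did Ndufa4 (-0.81, adjusted p = 0.0447). Without the third maintenance library Cox8a passed (adjusted p = 0.0438) and Cox4i1, Cox7a2 and Ndufa4 did not (adjusted p = 0.09, 0.137 and 0.0974); over all alternatives their adjusted p ran from 0.0116 to 0.119, 0.0123 to 0.17 and 0.0174 to 0.171. The hypoxia-linked forms Cox4i2 and Ndufa4l2 passed in no comparison; both were highest in the second 4-week gain library, at 14.8 and 49 CPM.

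**Figure D5:**
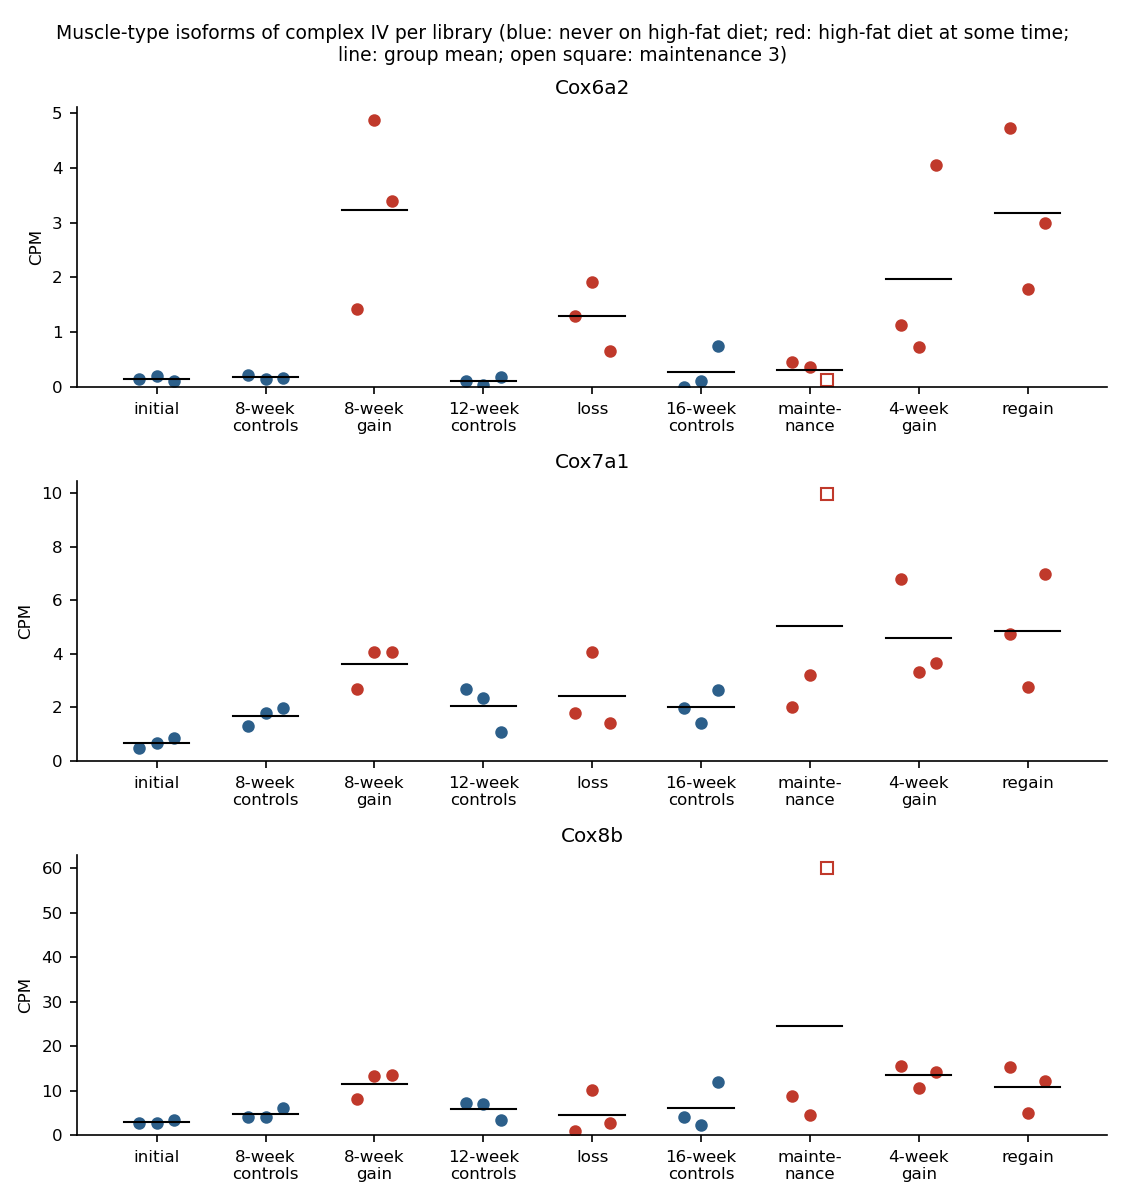
Level in CPM (vertical axes, starting at 0) of the minor complex IV isoforms Cox6a2, Cox7a1 and Cox8b in each library by group; points are libraries, lines are group means and the open square is the third maintenance library. The 3 Cox6a2 values of the 8-week gain group, 1.42 to 4.86 CPM, lie above those of the 8-week controls, 0.154 to 0.216 CPM.

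Lists of genes that build and regulate the chain were counted in the same comparisons. In the 8-week gain group 4 of 41 assembly factors passed as higher, where 12% of all names did, and 0 as lower, led by Coa4, a complex IV assembly factor, at 6.64 ± 0.21 CPM against 2.63 ± 0.05 (log2 fold change 1.34, adjusted p = 0.000156), and Tmem126b of complex I assembly (0.61, adjusted p = 0.00164). Of 21 genes that copy and transcribe mitochondrial DNA 1 passed, Mterf1a, lower (-0.80, adjusted p = 0.0372). Of 10 genes for succinate dehydrogenase and electron carriers, Sdha, the flavoprotein subunit of complex II, passed as lower (-0.61, adjusted p = 0.0422). Of 17 regulators of mitochondrial biogenesis 5 fell, where 9.52% of all names did, and 1 rose. Ppargc1a, the coactivator PGC-1 alpha, was at 8.54, 9.25 and 11.1 CPM in the controls and 2.38, 2.14 and 2.26 CPM in the gain group (-2.09, SE 0.31, adjusted p = 0.000211), and Perm1, a muscle-enriched PGC-1 target, rose from 0.890 ± 0.227 to 5.31 ± 1.42 CPM (2.57, adjusted p = 0.000648).

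In the loss group 11.8% of all names passed as higher and 8.24% as lower. There 1 of 41 assembly factors, Coa4 (1.17, adjusted p = 0.000226), passed as higher. Tfb2m, the mitochondrial transcription factor B2, passed as lower (-0.46, adjusted p = 0.0302), the only one of its 21-gene list to pass. It was also lower in the 8-week controls than in the initial group (-0.64, adjusted p = 0.0424). Of 17 regulators 2 passed as lower in loss, among them Ppargc1a (-1.08, adjusted p = 0.0168), and 2 as higher, among them Perm1 (2.86, adjusted p = 0.000231). The Ppargc1a groups overlapped, at 4.22, 3.63 and 10.1 CPM in the 12-week controls and 1.85, 2.75 and 3.87 CPM in loss. Its highest control value was in the third library. In regain against the 16-week controls Tfb2m was again lower (-0.53, adjusted p = 0.0132), with Mterf3 (-0.41, adjusted p = 0.0464), while Fastkd2, a mitochondrial RNA-binding protein, rose (0.74, adjusted p = 0.0301). These were 2 lower and 1 higher of 21, where 9.23% of all names passed as lower and 12.5% as higher. Of 17 regulators 3 rose in regain and 0 fell, among them Esrra, the estrogen-related receptor alpha (0.86, adjusted p = 0.0405). Ppargc1a was at 2.996, 3.24 and 4.26 CPM in the controls and 3.07, 3.51 and 3.75 CPM in the regain libraries, which overlap. In 4-week gain 3 of 41 assembly factors passed as higher, where 3.8% of all names did, Tmem126b (0.58, adjusted p = 0.0165), Coa3 and Uqcc2, beside 10 of 77 mitochondrial ribosomal proteins. The 77 tested cytosolic ribosomal proteins, which serve translation outside mitochondria, had a median of 0.67 in 4-week gain, with 2 higher, and 0.74 in maintenance (0.94 without the third library), against 0.64 and 0.78 (0.57) for the nuclear members, and what the lists share was not tested. In maintenance 0 genes of these lists passed, as did 0 of all names.

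In regain against maintenance members of the wider mitochondrial lists fell: 9 of 21 genes of mitochondrial DNA copying and transcription, led by Peo1, the Twinkle helicase (-0.76, adjusted p = 0.00014), 10 of 20 citrate cycle genes, 8 of 41 assembly factors and 19 of 77 mitochondrial ribosomal proteins, with 0 higher in each of these lists, where 13% of all names passed as lower. Without the third maintenance library the lower counts were 8 of 21, 1 of 20, 5 of 41 and 10 of 77, with 1, 1, 2 and 0 higher, where 12.9% of all names passed as lower, and Peo1 had -0.82 (adjusted p = 0.000348). In that comparison 10 of 15 adipocyte markers and 15 of 16 liver markers fell and 11 of 13 macrophage markers rose, and without that library the counts were 8, 2 (with 2 higher) and 10; their part in these counts was not tested.

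Promoters of the nuclear members were read for the motifs of factors known to regulate respiratory genes, since many of these members lay on the same side of 0 in maintenance and 4-week gain. RefSeq start sites on GRCm38.p6 were available for 66 of the 80, with windows of 250 bases before to 50 after the start, and both strands were searched. The NRF1 motif, in capitals in the first 3 sequences below and its own reverse complement, was found in 5 of 66 (7.58%) against 1.07% of all promoters of that length. The motif of YY1, searched as 1 exact string, was in 6 (9.09%) against 0.995%, the ETS motif bound by GABPA, ACTTCCGG, in 5 (7.58%) against 4.31%, and the estrogen-related receptor motif TCAAGGTCA in 1 (1.52%) against 0.466%. A match says only that these letters are present, and exact motifs miss sites that differ by a base. Stretches of 80 bases with the motif in capitals are shown for members that carry it, among them Ndufa11, which passed in 4-week gain, and the c-ring genes Atp5g2 and Atp5g3: Ndufa11 at chr17:56717667-56717746 (plus strand), Atp5g2 at chr15:102671048-102671127, Cox6a1 at chr5:115349076-115349155, Atp5g3 at chr2:73911335-73911414, with its motif on the reverse strand, and Atp5h at chr11:115419920-115419999 (all minus strand).
Ndufa11: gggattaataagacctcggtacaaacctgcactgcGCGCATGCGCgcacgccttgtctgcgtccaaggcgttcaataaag
Atp5g2: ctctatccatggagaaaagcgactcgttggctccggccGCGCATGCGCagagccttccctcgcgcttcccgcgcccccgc
Cox6a1: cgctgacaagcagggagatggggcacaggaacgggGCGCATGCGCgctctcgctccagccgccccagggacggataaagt
Atp5g3: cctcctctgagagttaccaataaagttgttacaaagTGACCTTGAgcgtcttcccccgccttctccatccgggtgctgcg
Atp5h: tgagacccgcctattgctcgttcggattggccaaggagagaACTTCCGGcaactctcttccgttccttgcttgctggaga
The first 3 carry the NRF1 motif, Atp5g3 the estrogen-related receptor motif and Atp5h the ETS motif. In 4-week gain their log2 fold changes were 1.11, 0.25, 0.49, 0.73 and 0.57 in that order, of which Ndufa11 passed.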

How the data were processed

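RNA of 27 samples of mouse epididymal fat in 9 groups of 3 was sequenced from TruSeq libraries, per the labels' protocols. The authors deposited raw read counts per gene and a table of FPKM; per the submitters' processing notes Trimmomatic 0.33, TopHat2 2.0.13 and HTSeq 0.6.0 were used with the mm10 build, and the strand setting and treatment of multiply placed reads are not given in the sources used here. The deposited counts were tested with edgeR 4.0.16 (R 4.3.3), quasi-likelihood, TMM scaling, names with a count minimum of 10 (total 15) by filterByExpr, all 9 groups in 1 fit, no covariate, Benjamini-Hochberg over 17821 names, threshold 0.05. Rows repeating a name (156 of 43616) were left out. CPM are TMM-scaled, and a prior count of 2 was used for log2 CPM. Log2 fold changes used the default prior count of edgeR. Totals were 26479773 to 32728594 counts. Levels between genes were read from the deposited FPKM, on which limma 3.58.1 was run as an alternative on log2(FPKM + 1) and log2(FPKM + 0.1); DESeq2 1.42.0 was another.

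The members, gene lists and tests were chosen with earlier results of these data known. Named were up to 5 nuclear members per direction with the largest fold among those that passed, did not overlap and reached 5 CPM; the 3 mitochondrial members with the smallest adjusted p; the complex IV isoforms; the 2 highest members by FPKM per complex and genome; and up to 3 genes per list. Fits were tested on simulated data. Promoters are from RefSeq (GRCm38.p6) and transcripts from GENCODE M21.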

Additional observations from a re-analysis of the deposited data

How the results depend on the processing

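No named member that passed changed sign in the settings run, but medians near 0 did when 1 library was left out: -0.27 to 0.26 for the mitochondrial members in maintenance, -0.13 to 0.16 for the nuclear members in regain against controls, -0.01 to 0.24 for the nuclear members in 8-week gain, and -0.11 to 0.17 (nuclear) and -0.03 to 0.14 (mitochondrial) for the 8-week controls against the initial group. Given as mitochondrial then nuclear members over the fits that left out 1 library each, the counts ran from 0 to 4 and 1 to 2 in 8-week gain, 5 to 11 and 0 to 3 in loss, 0 to 1 and 0 to 54 in maintenance, 0 to 3 and 0 to 20 in 4-week gain, 1 to 5 and 1 to 2 in regain against controls, 0 to 1 and 0 to 26 in regain against 4-week gain, 1 to 7 and 8 to 62 in regain against maintenance, and 0 to 0 in the others. Fits of the compared groups alone gave 6 mitochondrial and 7 nuclear members in 8-week gain, 2 and 1 in loss, 0 and 0 in 4-week gain, 0 and 2 in regain against maintenance, 2 nuclear in regain against controls and 1 nuclear in the 8-week controls against the initial group. DESeq2 gave 5 mitochondrial and 12 nuclear in 4-week gain, 2 nuclear in 8-week gain, 26 nuclear in maintenance and 8 nuclear in regain against 4-week gain. Without the low-count filter there were 0 mitochondrial and 2 nuclear in 4-week gain and 1 nuclear in loss. DESeq2's size-factor scaling in edgeR (RLE) gave 2 nuclear in 4-week gain. limma on log2(FPKM + 1) gave 2 nuclear in 4-week gain and 8-week gain, and 3 mitochondrial and 17 nuclear in regain against maintenance; with 0.1 added it gave 2 nuclear in 8-week gain and 2 and 17 in regain against maintenance. The cause of these shifts was not tested. Of these settings, the share of all names is given only for the maintenance comparisons without the third maintenance library. The replicate block gave 0 mitochondrial and 2 nuclear members in 4-week gain, and 26 nuclear members in regain against maintenance; the replicate numbers share only a number, since same-numbered libraries correlated between -0.181 and 0.378, and no comparison (0 of 8) had each value over 0.1. The wider lists and the mt-Nd5 to mt-Nd1 ratio without the third maintenance library were also added after seeing the data. In a choice made after seeing the data, leaving out the second 4-week gain, the third maintenance, the first loss and the third 12-week control libraries gave 3 mitochondrial in 4-week gain, 7 and 7 in 8-week gain, 1 nuclear in loss, 1 mitochondrial for the difference between loss and 8-week gain, and 5 nuclear in regain against controls. A term for the Lars2 set, also added later, moved no count by more than 1.5 times. Searched on the given strand only, the estrogen-related receptor motif was in 0 promoters of members. Cox6a2 and the 5 poorly counted mitochondrial members have too few reads to give a reliable size of change.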
